A study of Mus musculus with 12 samples.

Results

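Synaptic adhesion molecules are the membrane proteins that join a presynaptic terminal to its target cell, and 44 genes that encode them were followed here. They were taken by gene symbol as members of known protein families, by a list made with earlier results of these data known, and all 44 were found among the 48709 genes of the count tables. The list holds neurexins, LAR-type receptor phosphatases, neuroligins, LRRTM, SLITRK, SALM and FLRT proteins, Il1rapl1, SynCAM and NCAM proteins, the L1 family, contactins and contactin-associated proteins.

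Poly(A) RNA was sequenced from 12 samples of primary hippocampal neurons, prepared from embryonic day 17 embryos of CD1 mice. Of these, 6 were treated with a miR-148a-3p mimic and 6 with a negative control oligonucleotide. Treatment began at day 10 in vitro, and RNA was collected at day 12, after 48 h. Per the methods of the study, both oligonucleotides were delivered in lipid nanoparticles together with ApoE4, and hippocampi of several embryos were pooled for a preparation. The study describes its primary hippocampal cultures as holding glial cells as well as neurons. The comparison asks which transcripts change when neurons receive more of this microRNA. The labels do not say whether the 6 samples of a group are separate cultures, so the p-values measure the spread between these samples, which may be technical.

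Most synaptic adhesion proteins act in pairs across the cleft. On the presynaptic side, neurexins and LAR-type phosphatases serve as hubs, each of which binds several partners. Neuroligins and leucine-rich repeat proteins such as LRRTM, SLITRK and SALM proteins are their postsynaptic ligands. SynCAM and NCAM proteins are immunoglobulin proteins that bind their own kind or other proteins on the facing cell. L1 proteins, contactins and contactin-associated proteins guide axons and organise the axon initial segment, the node of Ranvier and the myelinated axon. A microRNA binds transcripts through its seed, bases 2 to 8, and lowers the stability or translation of transcripts that carry the complementary sequence in their 3 prime untranslated region (UTR).

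The 2 oligonucleotides that distinguish the groups are shown 5′ to 3′ as RNA, with the seed in capitals.
miR-148a-3p mimic: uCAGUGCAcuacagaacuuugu
negative control: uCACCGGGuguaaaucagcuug
The mimic was identical to mature mmu-miR-148a-3p of RefSeq, which lies at chr6:51269829-51269850 on the minus strand of GRCm38.p6. The sequence of the negative control is the one listed among the reagents of the study, and its use in these samples is assumed.

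A site was counted where the longest annotated 3 prime UTR of a gene held TGCACTG, which pairs with bases 2 to 8 of the mimic, or GCACTGA, which pairs with bases 2 to 7 and is followed by an A. The 2 motifs overlap in 6 bases, and a UTR with both in 1 place holds the 8-base site TGCACTGA. Only the strand of the transcript was searched. Of the 44 adhesion genes, 14 held a site (31.8%), against 3308 of the 15082 tested genes with an annotated 3 prime UTR (21.9%). The windows below, on the transcript strand of mm10 with the matched bases in capitals, are those of the called genes with a site and of the 2 neuroligins, which share a nearly identical one.
Cntn4, chr6:106697820-106697843, plus strand: ctctgcaaTGCACTGAagacatct
Ptprd, chr4:75942520-75942543, minus strand: atagaatgTGCACTGtgtgagtct
Ptprd, chr4:75941843-75941866, minus strand: ttgtactaTGCACTGctctattga
Cadm1, chr9:47853008-47853031, plus strand: gtatacagTGCACTGtttgaaatg
Cadm3, chr1:173335507-173335530, minus strand: ctctccctgGCACTGAccctggat
Ncam1, chr9:49503703-49503726, minus strand: caagcttgTGCACTGtggatgcgt
Nlgn1, chr3:25427654-25427677, minus strand: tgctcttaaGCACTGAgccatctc
Nlgn3, chrX:101323537-101323560, plus strand: tgctcttaaGCACTGAgctatctc
Nlgn3, chrX:101323124-101323147, plus strand: taaaggtgTGCACTGctatatcca
Cntn4 alone among the 44 genes had the 8-base site, which 626 of the tested genes had (4.15%). Ptprd and Nlgn3 each had 2 sites. The Nlgn1 window and the first Nlgn3 window were identical at 23 of 24 bases. Whether these bases are a conserved site or part of a repeat was not examined.

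Library totals ranged from 20018234 counts in control replicate 1 to 37149112 in control replicate 3. Their difference between the groups gave p = 0.515 in a two-sided exact permutation test over 924 regroupings. The first principal component of the tested genes separated mimic from control and held 38.4% of the variance. Control replicate 1 stood apart on the second, which held 21.1%, with a score of 30.72 against -12.27 to 10.45 for the other controls. Neuron markers were measured in every library, and astrocyte markers were abundant too, so the label of hippocampal neurons describes a mixed culture. Expression is reported as CPM, in which counts are set relative to the library total after scaling by the trimmed mean of M-values. A gene was called when its adjusted p in edgeR, over all 18847 genes tested, was under 0.05.

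Control replicate 1 was the highest or the lowest control for 33 of the 44 adhesion genes, highest for 18 and lowest for 15. Its median distance from the median of the 6 controls was 0.20 on the log2 CPM scale without regard to sign, while the other 5 controls lay between 0.03 and 0.11. Its deviation from the other controls followed the GC content of the transcript, with Spearman rho = 0.95 across the 44 genes. The same measure was 0.76 across 12713 tested genes with an annotated 3 prime UTR and a mean of at least 50 counts. Genes are not independent replicates, and these correlations are a description of 1 library. Adhesion genes that were highest in this library had a median GC content of 56.1%, and those that were lowest had 41.3%. At one end stood Slitrk4, where control replicate 1 was 0.56 below the other controls on the log2 scale, and at the other end Cadm4, where it was 0.46 above them. The log2 fold change between the groups was only weakly related to GC content (rho = -0.25 across the 44 genes). Each result is therefore also given without this library where it changed a call.

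**Figure D1:**
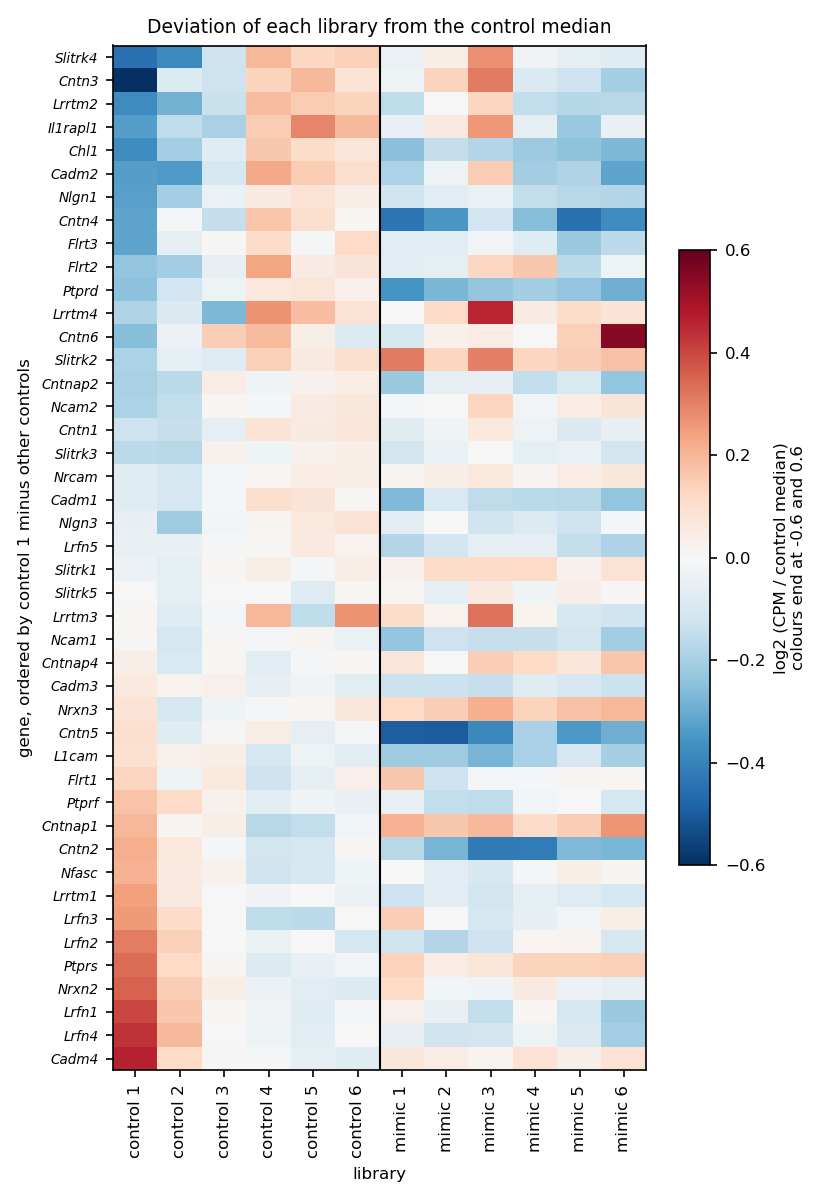
Each row is an adhesion gene and each column a library, and the colour gives log2 of the CPM divided by the median of the 6 controls, with colours ending at -0.6 and 0.6. Genes are ordered by the deviation of control replicate 1, which runs from -0.56 for Slitrk4 at the top to 0.46 for Cadm4 at the bottom, while Cntn2 and Cntn5 stand out as lower across the 6 mimic libraries.

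All 44 adhesion genes passed the filter on low counts, in which a gene needed at least 5 counts in at least 6 samples. The gene with the fewest reads, Cntn3, had a mean of 61.7 counts. Of the 44, 14 were called (31.8%), 10 lower and 4 higher in mimic, and 30 were not called. Among all tested genes 22.2% were called, 10.7% lower and 11.5% higher. All 44 had a mean of 50 counts or more, and among the 13513 tested genes that did, the shares were 27.9%, 13.2% and 14.7%. The adhesion genes called lower made up 22.7% of the 44 and those called higher 9.09%. Estimates lay below 0 for 28 genes and above 0 for 16, with a median log2 fold change of -0.04 against -0.01 for all tested genes. Differences were small, from -0.37 for Cntn5 to 0.20 for Slitrk2 on the log2 scale. No adhesion gene passed an edgeR test against a fold change of at least 1.2. The lowest adjusted p in that test was 0.19, and Cntn5 was the 1 gene with an unadjusted p under 0.05. Summed over the 44 genes, CPM was 8780 ± 158 in control and 8360 ± 65.7 in mimic (SD, n = 6), with the lowest sum in mimic replicate 6 (8250) and the highest in control replicate 1 (9050).

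Without control replicate 1, 19 adhesion genes were called (43.2%), 14 lower and 5 higher, and they held all 14 of the first set. The background rose as well, to 27.4% of all tested genes and to 34.6% of those with a mean of at least 50 counts. Gained were Lrfn4, Flrt3, Chl1 and Cntnap2, which were lower in mimic, and Ptprs, which was higher. Ranges of adjusted p given below are over 21 alternative fits, which leave aside the test against a minimum fold. In a fit that took the trend of each library with GC content as offsets, chosen after the data were seen, 24 were called (54.5%), 19 lower and 5 higher. In that fit 31.8% of all tested genes were called. The share was 40.8% of the genes with a mean of at least 50 counts, of which 20.1% were lower and 20.7% higher. Again all 14 were among the adhesion genes called.

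**Figure D2:**
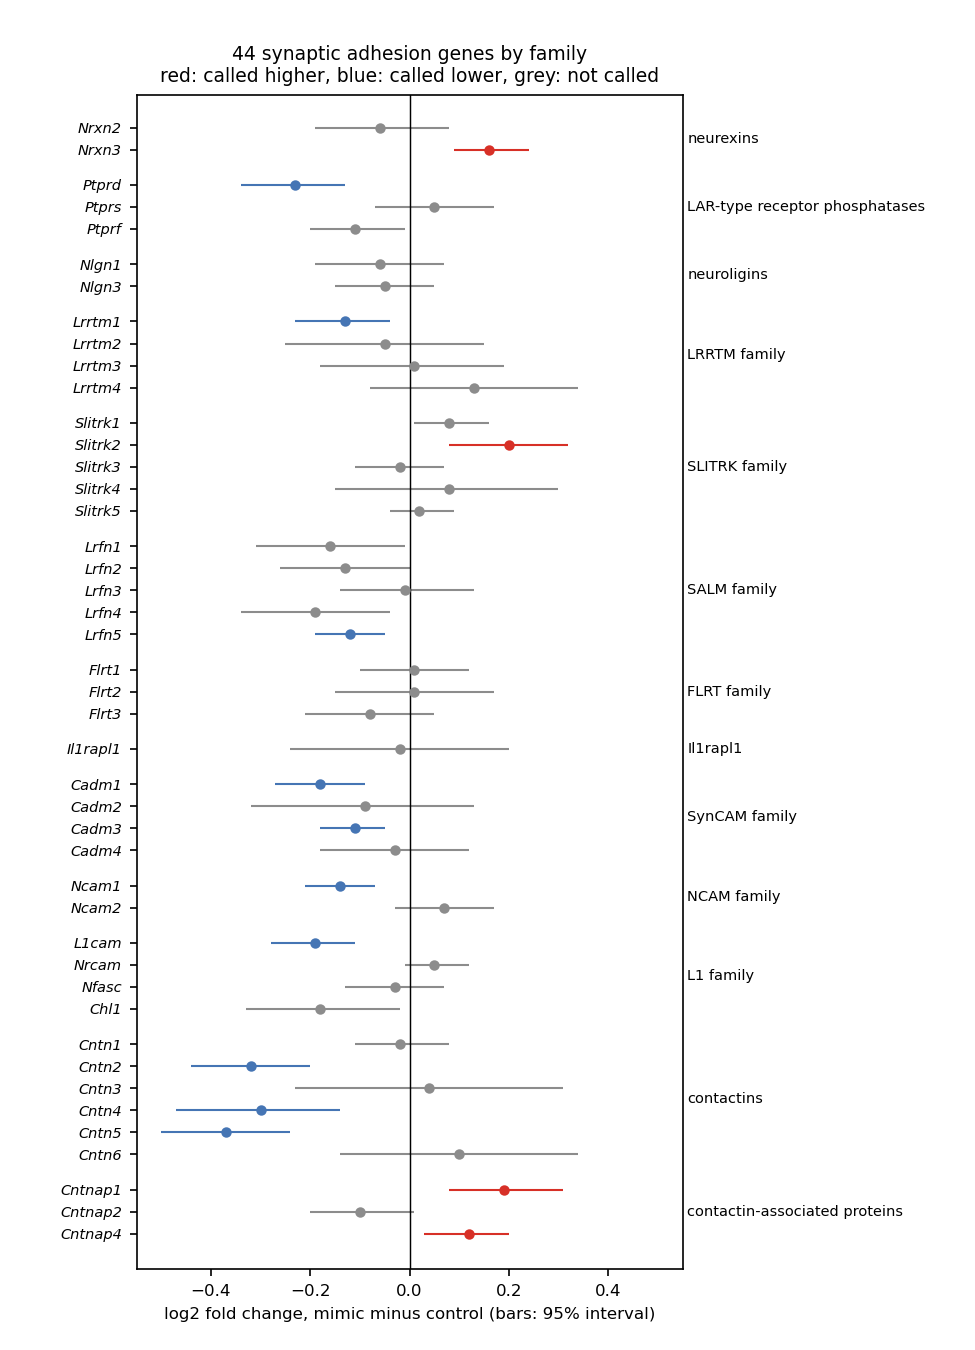
Log2 fold change of each of the 44 adhesion genes, mimic minus control, grouped by family, with bars for the 95% interval. The 4 genes called higher are red, the 10 called lower are blue and the 30 not called are grey, and all estimates lie between -0.37 and 0.20.

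Levels of different genes can be compared only per length, and CPM per kb of annotated exon is used for this. In control, Cadm4 stood highest at 112 ± 16.9 CPM per kb (SD, n = 6), followed by Cntn1 at 91.3 ± 6.33 and by Ncam1 and L1cam at 82.3 ± 2.45 and 81.8 ± 4.22. Cadm4 and Cntn1 overlapped within their SD, and so did Ncam1 and L1cam. At the low end were Lrrtm4 at 1.16, Cntn6 at 0.411 and Cntn3 at 0.297 CPM per kb. The contactins thus covered nearly the whole range of levels, from Cntn1 to Cntn3. Long genes with several promoters carry more annotated exon than any 1 transcript holds, so their level per kb is understated.

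**Figure D3:**
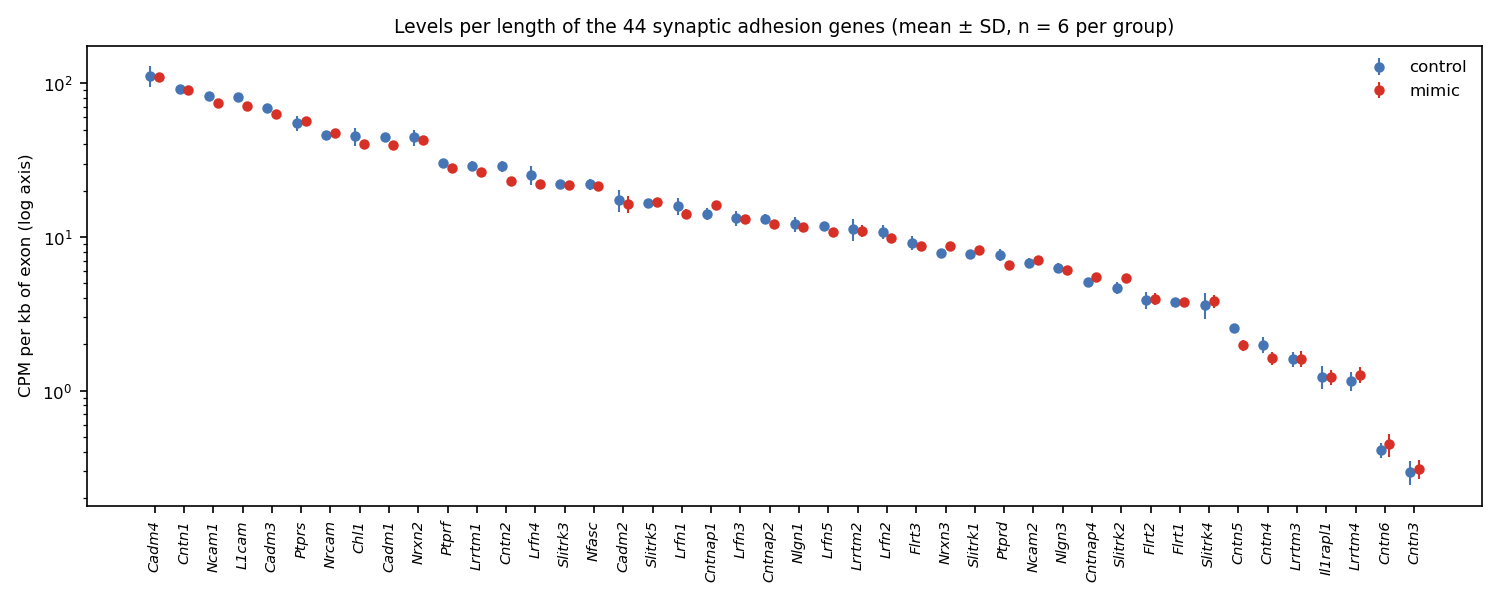
CPM per kb of exon on a log axis for the 44 adhesion genes, ordered by the control mean, with points for the mean and bars for the SD of the 6 libraries of each group. Levels fall from 112 for Cadm4 to 0.297 for Cntn3 in control, and mimic points lie close to the control points throughout.

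Of the 5 presynaptic hub genes, 1 was higher in mimic (20%), 1 was lower (20%) and 3 were not called. Among all tested genes 11.5% were higher and 10.7% lower, and 14.7% and 13.2% at a mean of 50 counts or more. Neurexins are long presynaptic receptors made from several promoters with much alternative splicing, which counts per gene do not resolve. Nrxn3 (chr12:88722876-90334935) lay between 91.3 and 104 CPM in control, with a median of 98.3, and between 107 and 114 CPM in mimic, with a median of 110. Every mimic library was above every control library. The mean was 98.6 ± 4.71 in control and 110 ± 2.62 in mimic (SD, n = 6), a rise of 12.1% (log2 fold change 0.16, SE 0.036, edgeR adjusted p = 0.00284). Nrxn2 was not called, at 615 ± 74.4 CPM in control and 591 ± 27.8 in mimic, with an edgeR adjusted p of 0.574. Its highest value by far, 750 CPM, was that of control replicate 1, and without that library its log2 fold change was 0.01.

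The LAR-type phosphatases pair an extracellular part of immunoglobulin and fibronectin domains with intracellular phosphatase domains, and they bind SLITRK, SALM and Il1rapl1 proteins. Ptprd (chr4:75941238-78211961), which encodes PTPδ, ranged from 151 to 188 CPM in control, with a median of 179, and from 140 to 155 CPM in mimic, with a median of 150. Control replicate 1, at 151 CPM, fell within the mimic range, and the other 5 controls, from 165 CPM upwards, lay above all mimic libraries. Ptprd fell by 14.8% (log2 fold change -0.23, SE 0.049, edgeR adjusted p = 0.00226), and without control replicate 1 the adjusted p was 9.41e-06 (range 7.51e-09 to 0.00839). Its relative Ptprs, which encodes PTPσ, was 821 ± 92.6 CPM in control and 850 ± 23.9 in mimic and was not called (log2 fold change 0.05, 95% interval -0.07 to 0.17). Control replicate 1 held 994 CPM of Ptprs against 743 to 855 in the other controls. Without it Ptprs was called higher in mimic, with a log2 fold change of 0.11 and an edgeR adjusted p of 0.0182 (range 0.000193 to 0.844). Ptprf, the founding LAR gene, had a log2 fold change of -0.11 and was not called (edgeR adjusted p = 0.107). With GC offsets it was called lower, with an estimate of -0.09 and an edgeR adjusted p of 0.00873 (range 0.00149 to 0.29). The direction of the estimate thus differed among the 3 relatives, but the difference between genes was not tested.

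Among the 20 genes of postsynaptic partners, 2 were lower, 1 was higher and 17 were not called, with a median log2 fold change of -0.02. The share called was 15%, against 22.2% of all tested genes and 27.9% of those with a mean of 50 counts or more. Neuroligins are the classic partners of neurexins. With all 12 libraries and no offsets, neither Nlgn1 nor Nlgn3 was called by edgeR or by DESeq2, and neither had an unadjusted p under 0.05. The 95% interval of the log2 fold change was -0.19 to 0.07 for Nlgn1 and -0.15 to 0.05 for Nlgn3. Nlgn3 shares 41.24% of its exon bases with Gm21986 on the same strand, a transcript with a mean of 13.2 counts against 1723 for Nlgn3, and reads in the shared bases can be lost or split. With GC offsets Nlgn1 had a log2 fold change of -0.09 and an edgeR adjusted p of 0.00209 (range 0.000604 to 0.78). The adjusted p of Nlgn3 ranged from 0.0228, without control replicates 1 and 2, to 0.696.

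LRRTM proteins bind neurexins and help to hold AMPA receptors at excitatory synapses. Lrrtm1 (chr6:77242689-77257791) ranged from 83.3 to 101 CPM in control, with a median of 85.3, and from 78.2 to 82 CPM in mimic, with a median of 80. The groups did not overlap, although the lowest controls stood close to the highest mimic libraries and control replicate 1 stood far above the rest. Lrrtm1 fell by 8.87% (log2 fold change -0.13, SE 0.044, edgeR adjusted p = 0.0364). The call did not hold when control replicate 2 or mimic replicate 1, 2, 3, 5 or 6 was left out (adjusted p from 0.000632 to 0.0777). The other three LRRTM genes were not called. Lrrtm2 had a log2 fold change of -0.05, Lrrtm3 of 0.01 and Lrrtm4 of 0.13. Lrrtm2 shares 95 exon bases on the opposite strand with Ctnna1, a gene with more reads than Lrrtm2, and whether the counting used the strand is not given in the sources used here.

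SLITRK proteins are postsynaptic partners of Ptprd and Ptprs. Slitrk2 (chrX:66649318-66661393) ranged from 33.2 to 41.8 CPM in control, with a median of 37.9, and from 41.3 to 46.9 CPM in mimic, with a median of 42.3. The groups touched, since control replicate 4 was above the 2 lowest mimic libraries. With a mean of 37.8 ± 3.26 in control and 43.4 ± 2.59 in mimic (SD, n = 6), Slitrk2 rose by 14.7% (log2 fold change 0.20, SE 0.056, edgeR adjusted p = 0.0164). The other four SLITRK genes were not called and had log2 fold changes from -0.02 for Slitrk3 to 0.08 for Slitrk1 and Slitrk4. Without control replicate 1 the estimate for Slitrk4 was 0.01. Slitrk1 was at 41.4 ± 1.14 CPM in control and 43.9 ± 1.27 in mimic, with an edgeR adjusted p of 0.107.

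SALM proteins, encoded by the Lrfn genes, bind LAR-type phosphatases and, in part, PSD-95. All 5 estimates were below 0, with a median log2 fold change of -0.13, and 1 of the 5 was called. Without control replicate 1 the estimates were -0.09 for Lrfn1, -0.08 for Lrfn2 and 0.04 for Lrfn3, so the shared direction did not hold without that library. Lrfn5 (chr12:61523150-61858342) lay between 108 and 116 CPM in control, with a median of 112, and between 98.1 and 107 CPM in mimic, with a median of 102. No mimic library reached the lowest control, although the gap was small. Lrfn5 fell by 8.03% (log2 fold change -0.12, SE 0.034, edgeR adjusted p = 0.0157), a call that was lost when no filter on low counts was used (adjusted p = 0.0607, the lowest over the alternatives being 0.000476). Lrfn4, with an estimate of -0.19, ranged from 76.5 to 108 CPM in control and from 69.5 to 78.3 CPM in mimic. Its edgeR adjusted p was 0.0598, and it was 0.0458 by DESeq2. The highest Lrfn4 value was in control replicate 1, and without that library the estimate shrank to -0.12 and the edgeR adjusted p was 0.044 (range 0.000507 to 0.132). In the fit with GC offsets 4 of the 5 SALM genes were called lower (80%), where 15.9% of all tested genes were. At a mean of at least 50 counts that background share was 20.1%. The 4 were Lrfn1, Lrfn2, Lrfn4 and Lrfn5, with log2 fold changes from -0.14 to -0.10. Lrfn3 stood apart with -0.01 in the first fit and 0.03 with GC offsets.

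FLRT proteins bind latrophilins and Unc5 receptors. None of the 3 FLRT genes was called by edgeR or DESeq2, and none had an unadjusted p under 0.05. The 95% intervals of the log2 fold change were -0.10 to 0.12 for Flrt1 and -0.15 to 0.17 for Flrt2. Flrt3 had an estimate of -0.08 and was called without control replicate 1, with an edgeR adjusted p of 0.0249 (range 0.00542 to 0.589). Il1rapl1, a partner of Ptprd, was at 11.5 ± 1.99 CPM in control and 11.4 ± 1.28 in mimic (SD, n = 6), with a log2 fold change of -0.02 and an interval of -0.24 to 0.20. It was not called by either tool and had no unadjusted p under 0.05.

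Of the 6 SynCAM and NCAM genes, 3 were called lower (50%), where 10.7% of all tested genes and 13.2% of those with a mean of 50 counts or more were, and with all 12 libraries none of the 6 was called higher by edgeR or DESeq2 or had an unadjusted p under 0.05 in that direction. SynCAM proteins, encoded by the Cadm genes, hold pre- and postsynaptic membranes together through their immunoglobulin domains. Cadm1 (chr9:47530173-47857637) ranged from 433 to 499 CPM in control, with a median of 465, and from 387 to 437 CPM in mimic, with a median of 415. Only mimic replicate 2, at 437 CPM, exceeded a control. Cadm1 fell by 11.7% (log2 fold change -0.18, SE 0.041, edgeR adjusted p = 0.00366). Cadm3 (chr1:173333258-173367695) ranged from 478 to 519 CPM in control, with a median of 499, and from 453 to 475 CPM in mimic, with a median of 457. These groups did not overlap. Cadm3 fell by 7.48% (log2 fold change -0.11, SE 0.031, edgeR adjusted p = 0.0134), and the adjusted p ranged from 6.07e-05 to 0.0558 over the alternatives, above 0.05 without a filter on low counts. It shares 361 exon bases on the same strand with Ackr1, whose reads amounted to 8.56% of those of Cadm3, so reads of the 2 genes can be mixed. Both other SynCAM genes had estimates below 0 and were not called, with log2 fold changes of -0.09 for Cadm2 and -0.03 for Cadm4. Cadm2 was called lower with GC offsets, with an estimate of -0.12 and an edgeR adjusted p of 0.0249 (range 0.0249 to 0.859). Cadm4 turned to 0.06 without control replicate 1, which held 314 CPM against 217 to 248 in the other controls. Without control replicates 1 and 2 it was at 0.09 and was called higher, with an edgeR adjusted p of 0.0132 (range 0.0132 to 0.898).

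NCAM proteins are homophilic adhesion molecules of neurons and glia, and NCAM1 is the main carrier of polysialic acid in the brain. Ncam1 (chr9:49502136-49798925) ranged from 674 to 730 CPM in control, with a median of 722, and from 614 to 668 CPM in mimic, with a median of 655. All mimic libraries were below all controls. The mean was 713 ± 21.2 in control and 647 ± 22 in mimic (SD, n = 6), and Ncam1 fell by 9.26% (log2 fold change -0.14, SE 0.033, edgeR adjusted p = 0.00458). Ncam2, with roles in olfactory axons and in spines, had an estimate of 0.07 and was not called (95% interval -0.03 to 0.17, edgeR adjusted p = 0.314).

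Of the 13 axonal and nodal genes, 4 were lower (30.8%), 2 were higher (15.4%) and 7 were not called. Among all tested genes 10.7% were lower and 11.5% higher, and 13.2% and 14.7% at a mean of 50 counts or more. The L1 family guides growing axons, and Nfasc and Nrcam also assemble the axon initial segment and the node. L1cam (chrX:73853778-73896105) ranged from 560 to 643 CPM in control, with a median of 604, and from 498 to 562 CPM in mimic, with a median of 523. Mimic replicate 5 and control replicate 4 touched, and all other mimic libraries were below all controls. L1cam fell by 12.5% (log2 fold change -0.19, SE 0.039, edgeR adjusted p = 0.00147). Chl1, the close homolog of L1, had a like estimate of -0.18 with a wide spread in control, 556 ± 76.9 CPM against 492 ± 16.5 in mimic (SD, n = 6), and was not called (edgeR adjusted p = 0.0989). Control replicate 1 held the lowest Chl1 value among the controls, 441 CPM. Without it the log2 fold change was -0.24 and the edgeR adjusted p 0.00404 (range 1.02e-08 to 0.293). Nrcam and Nfasc had estimates of 0.05 and -0.03 and were not called.

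Contactins are immunoglobulin proteins anchored in the membrane by a lipid, and they held the largest changes of the 44 genes. Cntn5 (chr9:9660891-10904775) lay between 11 and 12.4 CPM in control, with a median of 11.5, and between 8.18 and 10.1 CPM in mimic, with a median of 8.97. The groups were clearly separated. The mean was 11.6 ± 0.517 in control and 8.98 ± 0.749 in mimic (SD, n = 6), and Cntn5 fell by 22.5% (log2 fold change -0.37, SE 0.061, edgeR adjusted p = 0.000239). Cntn2 (chr1:132509427-132543256), also known as TAG-1, is an axonal protein found with Cntnap2 next to the node. It ranged from 245 to 308 CPM in control, with a median of 265, and from 197 to 236 CPM in mimic, with a median of 218. No value of mimic reached the lowest control. Cntn2 fell by 19.8% (log2 fold change -0.32, SE 0.056, edgeR adjusted p = 0.000444).

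Cntn4 (chr6:105677660-106699310), another contactin, which lies outside the rule for named genes and was chosen after its values were seen, ranged from 13.8 to 19.3 CPM in control, with a median of 17.2, and from 12.6 to 15.9 CPM in mimic, with a median of 13.4. Control replicates 1 and 3 fell within the mimic range, and the other controls were above it. Cntn4 fell by 19% (log2 fold change -0.30, SE 0.078, edgeR adjusted p = 0.0084), and without control replicate 1 the adjusted p was 0.000372 (range 2.59e-05 to 0.026). Cntn1, the contactin with the highest level per kb, was 861 ± 59.8 CPM in control and 850 ± 31.7 in mimic, with a log2 fold change of -0.02 (95% interval -0.11 to 0.08). Cntn3 and Cntn6, the contactins with the lowest levels, had log2 fold changes of 0.04 and 0.10 with wide intervals, -0.23 to 0.31 and -0.14 to 0.34.

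Contactin-associated proteins, related to neurexins in their domains, pair with contactins along the axon. Cntnap1, or Caspr, is a component of the junction between axon and myelin beside the node. Cntnap1 (chr11:101170523-101190724) ranged from 74.8 to 96.4 CPM in control, with a median of 84, and from 90.8 to 101 CPM in mimic, with a median of 95.1. Control replicate 1 held the highest control value and lay within the mimic range, and the other 5 controls, at most 86.1 CPM, were below all mimic libraries. Cntnap1 rose by 14.4% (log2 fold change 0.19, SE 0.053, edgeR adjusted p = 0.0134), and without control replicate 1 the adjusted p was 0.000147 (range 3.1e-06 to 0.0367). It shares 233 exon bases with Plekhh3 on the opposite strand, whose reads amounted to 21.1% of those of Cntnap1. Cntnap4, which is linked to interneuron synapses, ranged from 30.4 to 33.1 CPM in control, with a median of 32.3, and from 32.3 to 36.3 CPM in mimic, with a median of 34.6. Mimic replicate 2 lay within the control range. Cntnap4 (chr8:112570043-112882717) rose by 8.33% (log2 fold change 0.12, SE 0.039, edgeR adjusted p = 0.0439), and this call did not hold in the fits without control replicates 2 to 6 or without mimic replicates 1, 3, 4, 5 or 6, each left out alone, nor with upper-quartile factors or without a filter on low counts (adjusted p from 0.00613 to 0.116 over the alternatives). Cntnap2 had an estimate of -0.10 and was called lower only without control replicate 1 (edgeR adjusted p = 0.0327, range 0.00138 to 0.345) among the fits that left out 1 library.

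**Figure D4:**
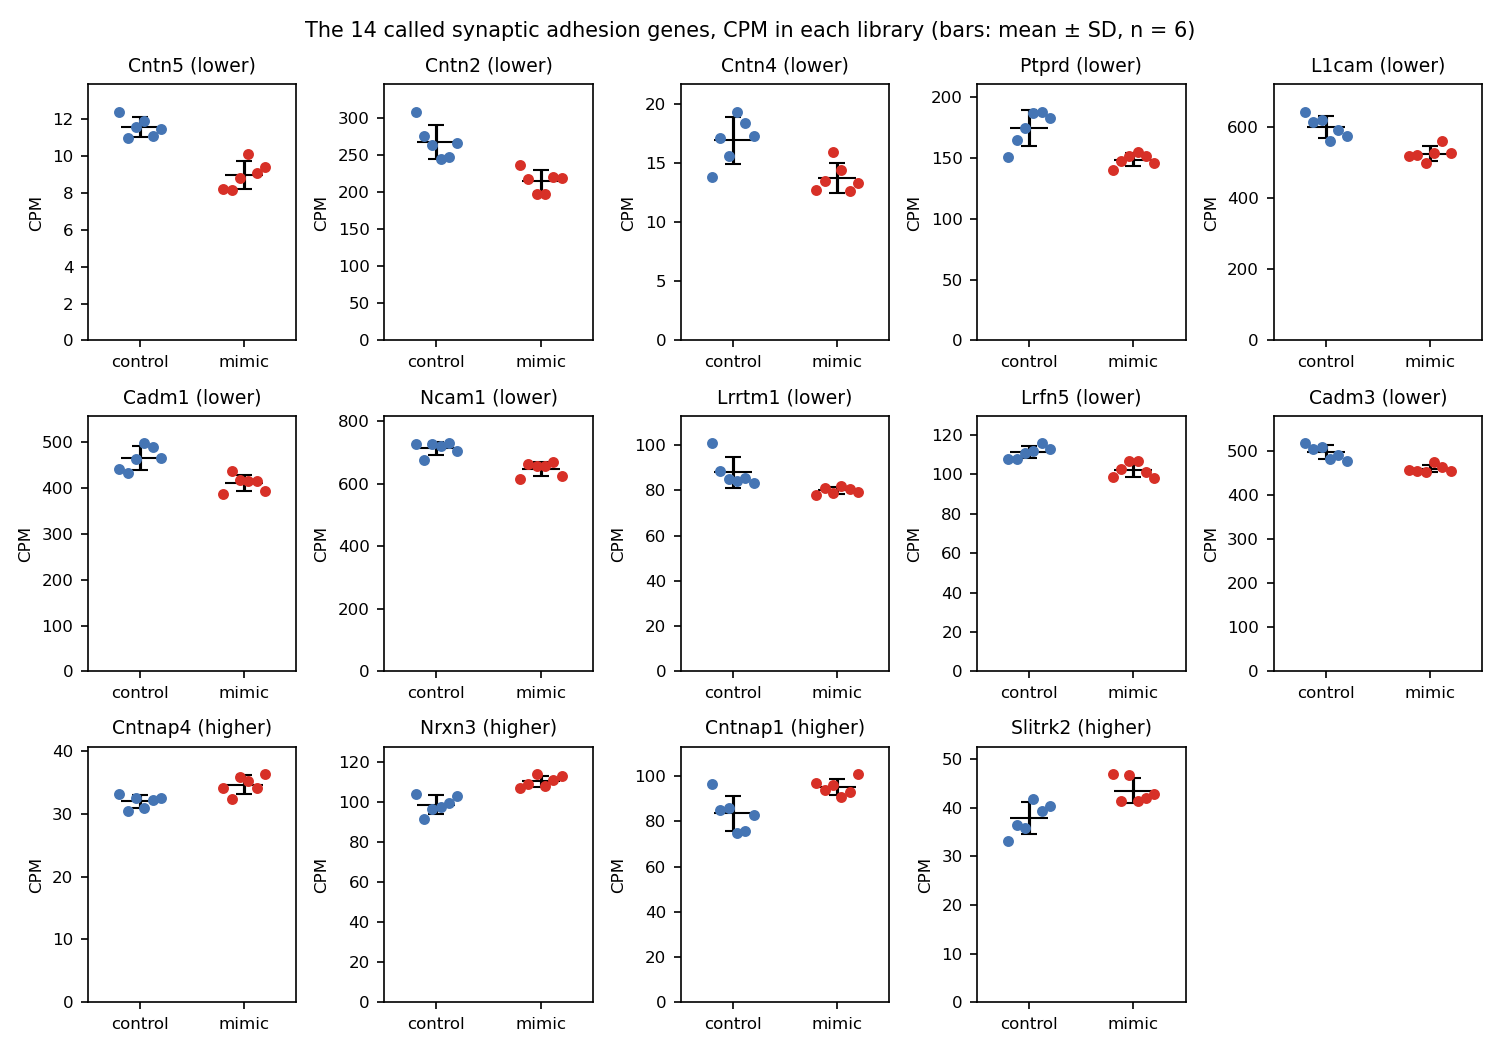
CPM of the 14 called adhesion genes in each library, with a point for each of the 6 control and 6 mimic libraries and bars for mean ± SD, on axes that start at 0. The drop of Cntn5 from 11.6 to 8.98 and of Cntn2 from 268 to 215 CPM is visible against the library spread. Lrrtm1, Lrfn5, Cadm3, Ncam1 and Cntnap4 differ by less than 10%.

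Across the 44 genes, 7 had groups that did not overlap in CPM, namely Nrxn3, Lrrtm1, Lrfn5, Cadm3, Ncam1, Cntn2 and Cntn5. Among all tested genes 13.3% had groups that did not overlap, and 17.4% of those with a mean of at least 50 counts. Controls were spread more widely than mimic libraries. The coefficient of variation had a median of 8.61% over the 44 genes in control and 4.25% in mimic, and it was larger in control for 35 genes. Without control replicate 1 the control median was 5.79%.

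Adhesion genes with a mimic site were compared with those without one as a description, with no test. Of the 14 with a site, 5 were lower in mimic (35.7%) and none was higher by edgeR or DESeq2, nor at an unadjusted p under 0.05. The 5 were Ptprd, Cadm1, Cadm3, Ncam1 and Cntn4. Of the 30 without a site, 5 were lower (16.7%) and 4 higher (13.3%). Over all tested genes with an annotated 3 prime UTR, 19.2% of those with a site were lower and 11.7% higher, against 10.8% and 14.1% of those without. The median log2 fold change of adhesion genes was -0.07 with a site and -0.02 without, and over all tested genes it was -0.04 with a site and 0.00 without. The 3 prime UTR was longer in adhesion genes with a site, with a median of 3500 bases against 1900, and the part of UTR length in these values was not tested. With GC offsets 8 of the 14 were lower (57.1%), and so were 11 of the 30 without a site (36.7%). The shares over all tested genes in that fit were 29.2% with a site and 15.9% without. Both genes with the largest falls, Cntn5 and Cntn2, had no site for the mimic. Cntn2 and Cadm3 each held 1 match to the seed of the negative control oligonucleotide, CCCGGTG or CCGGTGA, which 666 tested genes held (4.42%). Of those 666 genes, 23.6% were higher and 9.91% lower in mimic, against 13.1% and 12.7% of genes without a match, whereas Cntn2 and Cadm3 were both lower.

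**Figure D5:**
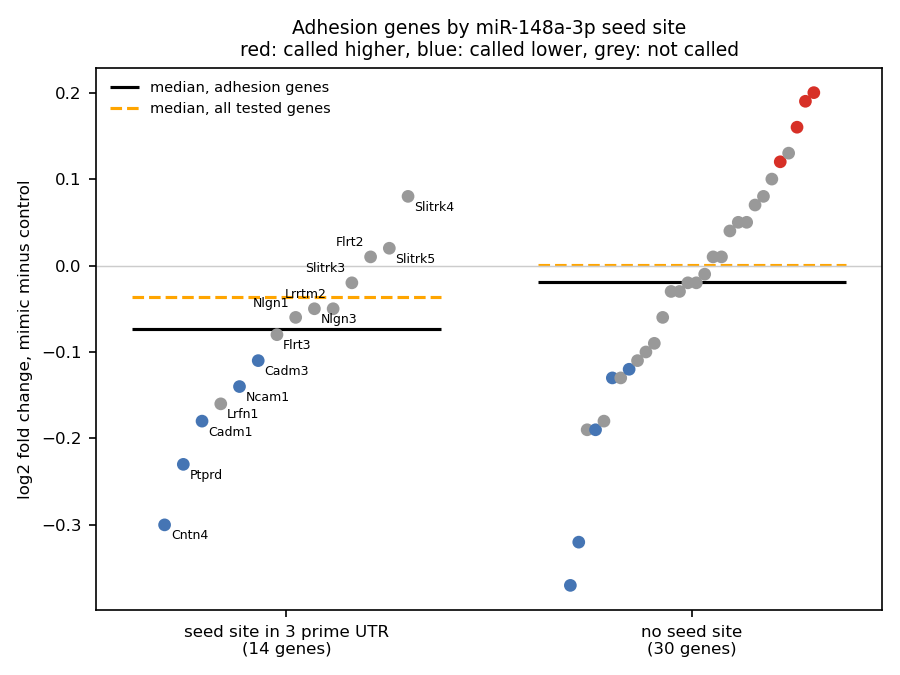
Log2 fold change of the adhesion genes with a mimic seed site in the 3 prime UTR (14 genes, named) and without one (30 genes), with the median of each set as a black line and that of all tested genes as a dashed line. The 4 genes called higher all lack a site, and those called lower are split evenly, 5 with a site and 5 without.

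Markers of other cells moved with the groups, and their part in the results on adhesion genes was not tested. Fewer cells of a type and less RNA per cell cannot be told apart in these samples. The summed level of 10 neuron markers was 7650 to 8080 CPM in control and 7060 to 7290 in mimic, and 4 of the 10 were lower and 1 was higher. Astrocyte markers summed to 5180 to 5690 CPM in control and 6280 to 6710 in mimic, with 7 of 10 higher and Gfap, an intermediate filament of astrocytes, lower. Markers of the oligodendrocyte lineage summed to 429 to 724 CPM in control and 810 to 1000 in mimic (5 of 10 higher, 1 lower). Of these, Mag, which marks mature oligodendrocytes, was under 1 CPM. All 8 proliferation markers were higher, from 182 to 227 CPM in control to 396 to 417 in mimic. Interneuron markers, which summed to 343 to 383 and 359 to 375 CPM, overlapped between the groups in their sum, with Gad2 higher and Dlx2 lower. Microglia markers also overlapped in their sum, at 23.6 to 27.7 and 22.6 to 34.7 CPM, with C1qa and C1qb lower and Cx3cr1, Itgam, P2ry12 and Tmem119 under 1 CPM. Endothelial markers, with Cdh5, Cldn5 and Tek at 0 in at least 1 library, summed to 46.6 to 68.7 CPM in control and 28.3 to 50.8 in mimic. Most of this sum was Kdr, at a mean of 48.1 CPM, the other 5 were under 1 CPM, and Kdr and Flt1 were called lower. Mesenchymal markers summed to 201 to 268 CPM in control and 98.1 to 226 in mimic, with 2 of 8 lower.

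Genes that work with the adhesion proteins were counted from 6 lists made with earlier results of these data known. Of their 128 genes, 17 were higher and 16 lower in mimic (25.8% called), near the shares of 22.2% of all tested genes and 27.9% of those with a mean of 50 counts or more. Without control replicate 1, 28 were higher and 20 lower, where 27.4% of all tested genes and 34.6% at a mean of 50 counts or more were called. With GC offsets 28 were higher and 27 lower, where these background shares were 31.8% and 40.8%. Secreted and membrane-bound partners in the cleft were called most often (42.1%), with 9 of 38 higher and 7 lower and a median log2 fold change of 0.02. Ntng1, which encodes netrin-G1, a membrane-bound ligand of Lrrc4c, rose from 3.03 ± 0.327 to 5.29 ± 0.856 CPM (SD, n = 6, log2 fold change 0.81, edgeR adjusted p = 3.56e-05). Cbln1, which links neurexins to glutamate receptors of the delta class, fell from 6.07 ± 0.483 to 4.91 ± 0.714 CPM (log2 fold change -0.30, edgeR adjusted p = 0.0279). Of 15 other immunoglobulin adhesion genes 2 were higher and 2 lower, with Igsf11 at 0.30 and Nectin1 at -0.18 on the log2 scale.

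Of 26 intracellular adaptors, which tie adhesion proteins to scaffolds and the cytoskeleton, 2 were higher and 1 lower (11.5% called, against 22.2% of all tested genes). By direction, 11.5% of all tested genes were higher and 10.7% lower, and 14.7% and 13.2% at a mean of 50 counts or more. Highest was Ppfia1, a liprin-α that binds LAR-type phosphatases, with a log2 fold change of 0.16 (edgeR adjusted p = 0.0121). Magi2 was lower, at -0.10 (edgeR adjusted p = 0.0307). Of 17 postsynaptic scaffold genes 2 were higher (11.8%), Tjp1 most (0.26). None was lower by edgeR or DESeq2, with 1 at an unadjusted p under 0.05. Of 20 genes of presynaptic vesicle proteins 1 was higher (5%), Sv2b (0.14), and 4 were lower (20%). The largest fall was that of Slc17a6, the vesicular glutamate transporter VGLUT2, from 42 ± 4.9 to 28.7 ± 2.39 CPM (log2 fold change -0.55, edgeR adjusted p = 3.15e-05). Among 12 proteases of the kind that shed adhesion proteins from the membrane, Mmp2 was higher (0.94, edgeR adjusted p = 3.78e-06), and Bace2 (-0.48) and Mmp24 were lower. Of the 12, 8.33% were higher and 16.7% lower.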

How the data were processed

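Per the labels and the methods of the study, 50 bp single-end reads of poly(A) libraries (TruSeq v2) were aligned to mm10 with STAR 2.5.2b and counted per gene with featureCounts (Subread 1.5.1). The deposited values used here are the raw read counts the authors obtained, whole numbers in 12 tables of 48709 Ensembl genes. Their normalized table of the whole series was not used. GENCODE M21 on GRCm38, the build of mm10, named 48349 genes and gave exons and 3 prime UTRs. Library totals were 20018234 to 37149112 counts. Replicates of a group differed by more than counting error (chi-square per degree of freedom 1.73 to 39.4), so the spread between libraries limits the precision along with depth.

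The 6 mimic samples were compared with the 6 controls, with groups taken from the labels. A gene was tested if 6 or more samples held at least 5 counts of it, as in the study. The test was run with edgeR 4.0.16 (R 4.3.3, TMM, robust quasi-likelihood F-test, no covariate), with Benjamini-Hochberg adjustment over 18847 genes. CPM refer to the TMM-scaled totals. The standard error is the size of the log2 fold change divided by the square root of F. The code was tested on simulated counts. Differences in library totals were tested by exact permutation. Alternatives were DESeq2 1.42.0, other scalings and filters, the replicate block, a minimum fold, leaving out libraries, and, chosen after the data were seen, GC offsets and leaving out control replicates 1 and 2 together. For the GC offsets, the deviation of each library from the gene mean was smoothed over transcript GC content, known for 99.68% of the tested genes.

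The members, lists, tests and alternatives were chosen with earlier results of these data known. Values in every library are summarised for called members with the largest change in their family (at most 2 per family, mean of at least 50 counts) and for members whose groups do not overlap. From each list the called gene with the largest change in each direction and a mean of at least 100 counts is named, and other genes named were chosen after their values were seen.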

Additional observations from a re-analysis of the deposited data

Results flagged for a closer look

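Of 92 groups of 6 libraries examined for a library that stands far from the rest, 5 had one. Chance alone gives about 1 in 20 groups, or 4.6 here. For Lrrtm1, control replicate 1 was the highest control at 101 CPM, with the next at 88.7, and for Cadm4 the same library was highest at 314 CPM, with the next at 248. Mimic replicate 3 was the highest mimic library for Lrrtm4 at 9.67 CPM (next 7.63) and for Slitrk4 at 39.7 CPM (next 33.7). For Cntn6, mimic replicate 6 was highest at 3.87 CPM (next 2.93). Of these genes, Lrrtm1 was called, and without control replicate 1 it was called as well (edgeR adjusted p = 0.0245).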

How the results depend on the processing

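Of the 14 called adhesion genes, 10 kept their call under every alternative except the minimum fold of 1.2, and none changed direction. The others were Lrrtm1, Lrfn5, Cadm3 and Cntnap4. Leaving out 1 library at a time gave 3 to 5 adhesion genes higher and 9 to 14 lower, with both upper ends without control replicate 1. All tested genes ranged from 1880 to 2697 higher and 1612 to 2453 lower, and the 6 lists from 13 to 28 higher and 11 to 20 lower. Against a fold of 1.2, 683 and 352 tested genes, 4 and 2 list genes and 0 adhesion genes in either direction were called. With GC offsets 19 adhesion genes were lower. The lists had 28 higher and 27 lower in that fit, against 3005 and 2990 of all tested genes. With GC offsets and control replicate 1 left out, 18 adhesion genes and 3244 tested genes were lower, and the lists had 35 and 32. Without control replicates 1 and 2, 6 adhesion genes were higher and 15 lower, against 3058 and 2892 of all tested genes and 32 and 28 of the lists. The 8-base site alone was found in 1 adhesion gene. Cntn3 and Cntn6, the 2 adhesion genes with the fewest reads, had the largest standard errors, 0.13 and 0.11 on the log2 scale.

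The replicate numbers do not pair the samples. Same-numbered samples had correlations of -0.08 to 0.182, with 1 of 6 over 0.1, and 1 mimic library correlated best with its own number. With the replicate number as a block, 3 adhesion genes were higher and 9 lower, against 1950 and 1709 of all tested genes and 15 and 12 of the lists, and Lrrtm1, Cadm3 and Cntnap4 were not called (edgeR adjusted p of 0.0715, 0.0531 and 0.0738).

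Sign changes concerned genes not called with all 12 libraries. Of these, Cadm4 was called after the change, higher without control replicates 1 and 2 (0.087, edgeR adjusted p = 0.0132). Leaving out 1 library at a time, the log2 fold change ranged from -0.088 to 0.005 for Nrxn2, -0.104 to 0.001 for Lrrtm2, -0.055 to 0.053 for Lrrtm3, -0.041 to 0.042 for Lrfn3, -0.024 to 0.038 for Flrt1, -0.028 to 0.067 for Flrt2, -0.077 to 0.044 for Il1rapl1, -0.062 to 0.056 for Cadm4, -0.057 to 0.011 for Nfasc, -0.039 to 0.002 for Cntn1 and -0.031 to 0.092 for Cntn3. With upper-quartile factors Lrrtm3 was at -0.013, Flrt1 at -0.010 and Flrt2 at -0.007. Without control replicates 1 and 2 Nrxn2 was at 0.043, Lrrtm3 at -0.027, Slitrk4 at -0.062, Lrfn3 at 0.079, Flrt2 at -0.077, Cadm4 at 0.087, Nfasc at 0.034 and Cntn3 at -0.055. With GC offsets Lrrtm3 was at -0.004, Lrfn3 at 0.029, Flrt2 at -0.007 and Cadm4 at 0.010, and with control replicate 1 also left out Lrfn3 was at 0.027, Flrt2 at -0.011, Cadm4 at 0.040 and Cntn3 at -0.015. The cause was not tested.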
